A study of Homo sapiens with 6 samples.

Results

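The transcripts described here are those of 42 genes for heat shock proteins, their partners and their regulators, among 60664 genes measured by RNA sequencing in the established ovarian carcinoma line SKOV3. They were taken by gene symbol from a list and fall into 9 classes (HSP70, HSP110, HSP90, small heat shock proteins, J proteins, co-chaperones, heat shock factors, the mitochondrial chaperonin and the cytosolic chaperonin CCT) and 3 compartments: 31 in the cytosol and nucleus, 6 in the endoplasmic reticulum (ER) and 5 in the mitochondrion. All 42 passed the filter on low counts. One of them, HSPB11, is matched by its older symbol; its current name is IFT25, after its place in a cilium transport complex, so its membership of the small heat shock class is by name. In 3 cultures the gene JUP, which encodes the junction protein plakoglobin, was knocked down (shJUP 1 to 3), and 3 cultures carried the control hairpin and are labelled wild type (shNC 1 to 3). The replicates are described as independent biological replicates. All cells belong to 1 line, and neither the hairpin's sequence and vector nor the time after delivery is stated in the labels, so that lower JUP and anything else the hairpin does cannot be told apart. In bulk RNA, fewer cells that express a gene and less of its RNA per cell cannot be told apart either.

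Molecular chaperones bind unfolded or partly folded proteins and help them to fold, to cross membranes or to be degraded. HSP70 proteins work in cycles of ATP hydrolysis that J proteins start and nucleotide exchange factors end, and pass some clients on to HSP90, while small heat shock proteins hold aggregating proteins without ATP and chaperonins fold proteins inside a closed ring. Cells under proteotoxic stress raise cytosolic chaperones through the transcription factor HSF1, and those of the ER through the unfolded protein response. Carcinoma cells commonly express many of these genes at high levels without heat.

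Each of the 6 libraries held 17456121 to 19279514 estimated counts. JUP itself was at 39.95, 93.6 and 24.6 CPM (counts scaled to library depth with TMM factors) in shJUP 1 to 3 and at 104, 133 and 102 CPM in shNC 1 to 3, so that shJUP 2 kept 83.0% of the mean control level. The log2 fold change of JUP was -1.10 (SE 0.44), which missed the edgeR threshold (adjusted p = 0.471) and passed in DESeq2 with library number as a block (adjusted p = 0.0481). Without shJUP 2 it was -1.80. Of 11 markers of the line, 10 reached 1 CPM, all but MUC16. Their summed level was 7380 to 8990 CPM in shJUP and 9530 to 11500 CPM in shNC, but the markers did not all go the same way. ERBB2 was at 2320, 4422 and 3271 CPM in shJUP 1 to 3 and at 4393, 6907 and 4224 CPM in shNC 1 to 3. KRT8 was higher in shJUP, at 627, 611 and 839 CPM against 563, 494 and 545 CPM. The ranges of PAX8 and VIM overlapped between the groups. Of 7 leukocyte markers 1 reached 1 CPM in at least 1 library (CD68), as did 4 of 6 endothelial and 6 of 8 fibroblast markers. PECAM1, TEK and ACTA2 reached it in shNC 2 alone. The fibroblast list summed to 11.7 to 269 CPM in shJUP and 44.0 to 499 CPM in shNC. COL1A1 by itself was at 253 CPM in shJUP 1 and 401 CPM in shNC 2. CD3E was at 0 throughout. The part of these levels in the results below was not tested. Mitochondrially encoded transcripts took 3.63%, 5.03% and 4.12% of counts in shJUP 1 to 3 and 5.00%, 5.79% and 4.90% in shNC 1 to 3. The libraries of number 2 stood apart from the others in both groups. The main edgeR test did not use library number. It was treated as a pairing in the ratios within numbers and in the fits with a block, although only number 2 gave clear ground for it. Deviations from the group means correlated at 0.14 for number 1, 0.51 for number 2 and 0.20 for number 3. By contrast, shJUP 3 correlated more with shNC 1 (0.39), and shJUP 1 slightly more with shNC 3 (0.15).

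Most chaperone transcripts had a slightly higher mean in shJUP than in shNC cells, and none passed the main test. The 42 genes together took 2.02%, 1.43% and 1.75% of the TMM-scaled library size in shJUP 1 to 3. In shNC 1 to 3 they took 1.51%, 1.17% and 1.47%. The average was 1.73 ± 0.295% in shJUP and 1.38 ± 0.184% in shNC (SD, n = 3 each). The groups overlap, since shJUP 2 lay below shNC 1 and 3. The log2 fold change (shJUP over shNC) was above 0 for 40 of the 42 and below 0 for 2, TRAP1 and HSPB1, with a median of 0.19. Over all 15867 genes tested 48.6% lay above 0, with a median of -0.0095. Within each library number the median log2 ratio of the members was 0.22 for number 1, 0.19 for number 2 and 0.18 for number 3, with 36, 38 and 34 of the 42 above 0. In 27 members shJUP was higher in all 3 numbers, which held for 21.3% of all genes.

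By the edgeR quasi-likelihood test with Benjamini-Hochberg adjustment over all genes, 0 of the 42 members were called (0% of all genes were), and the smallest adjusted p among them was 0.444. Before adjustment, 4 members had an edgeR p under 0.05, all higher in shJUP (HSPB8, HSPA4L, HSP90AA1 and DNAJA3), and 0 were lower, where 5.17% of all genes were higher and 4.87% lower at that level. DESeq2 and limma-voom called 0 members as well, while DESeq2 called 1.19% of the genes to which it gave an adjusted p. When a block for the library number was added, edgeR still called 0 members (0.0063% of all genes), but DESeq2 called 7 members higher and 0 lower, where it called 2.35% of the genes higher and 2.91% lower. These 7 were HSP90AA1, HSPA8, HSPA9, HSPB8, DNAJA3, CCT5 and CCT6A. Without both number-2 libraries DESeq2 called 3 of them, HSP90AA1, HSPA9 and HSPB8, all higher, with 2.08% of genes called higher and 2.43% lower, and edgeR called 0 members, with 0.119% of genes called higher and 0.189% lower. In 5 members every shJUP library lay above every shNC library and in 0 members below, where 8.39% of all genes were without overlap and higher and 8.65% without overlap and lower. They were HSPB8, HSPA4, HSPA4L, DNAJA2 and BAG3.

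**Figure D1:**
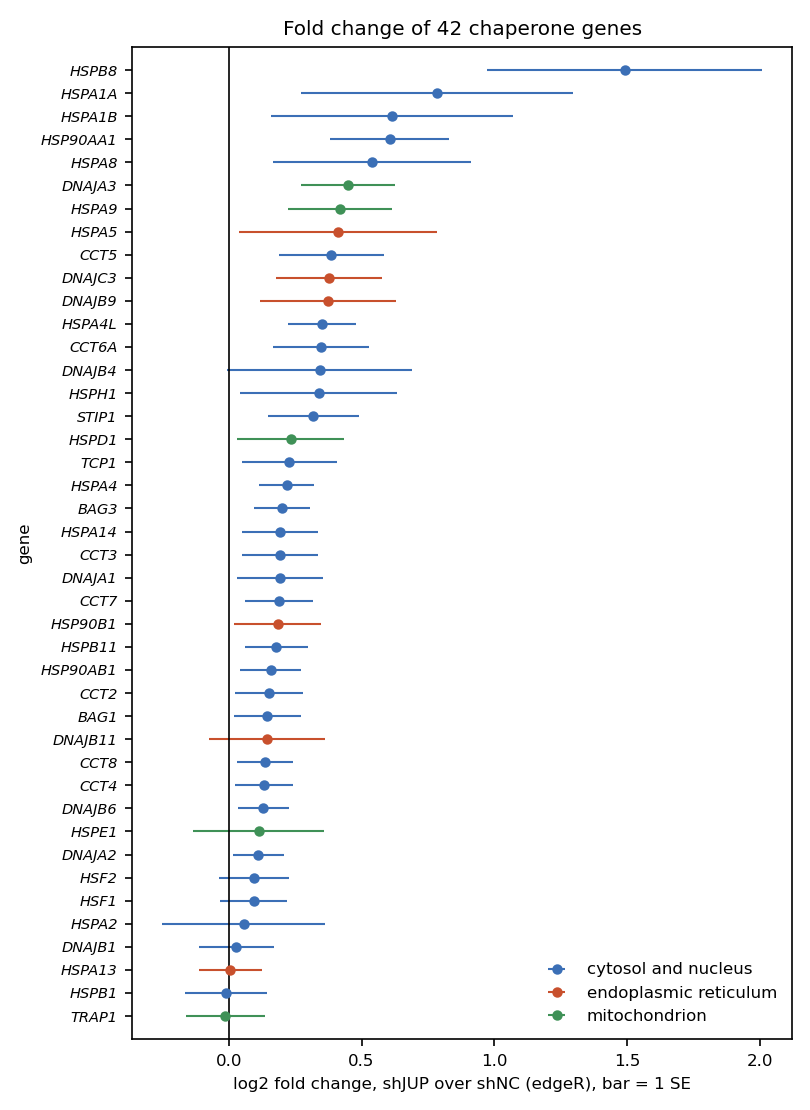
Log2 fold change of each of the 42 chaperone genes, shJUP over shNC, from the edgeR fit, with 1 SE as the bar and the compartment as the colour. Of the 42 points 40 lie above 0, most between 0 and 0.5, and HSPB8 stands highest at 1.49.

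The promoters of the members differ in the motifs read by the stress factors, and some are shown with the genes below. They come from RefSeq (GRCh38.p14), as windows from 250 bases before to 50 bases after an annotated start. The build behind the deposited counts is not stated in the labels. Windows were found for 39 of the 42 members, all but HSPA14, HSF1 and CCT6A. The heat shock element bound by HSF1 is made of inverted repeats of a short unit, and was searched as GAANNTTC or TTCNNGAA for 2 units. For 3 units, the first was followed by NN and GAA, or the second by NN and TTC, so that every match to 3 units holds 2 overlapping matches to 2 units. The ER stress element of the unfolded protein response was searched as CCAAT and CCACG with 9 bases of any kind between them, or as the reverse complement, CGTGG and ATTGG with the same gap. All searches cover both strands, and the ER stress element shares no match with the heat shock element in the windows shown. A match to 2 units lay in 35.8% of the 53 member windows (18 of 39 genes) and in 13.5% of all 35116 windows. A match to 3 units lay in 6 members (HSP90AA1, HSP90AB1, HSPA8, HSPD1, DNAJA1 and DNAJB6), or 11.3% of member windows against 0.49% of all windows. The ER stress element lay in 2 members, HSPA5 and HSP90B1, or 3.77% of member windows, and in 0.0769% of all windows. The 6 genes with 3 units had a median log2 fold change of 0.21 and a range of 0.13 to 0.61, close to the median of 0.19 over the 33 other members with a window. The median was 0.28 over the 18 genes with 2 units and 0.18 over the 21 without. For the ER stress element it was 0.30 over the 2 genes with a match and 0.19 over the 37 without. These differences were not tested. A match describes letters in the window and is no measure of binding.

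Of the cytosolic HSP90 pair, HSP90AA1 had the larger fold change. HSP90AA1 (ENSG00000080824), the more strongly stress-induced form, was at 3566, 2458 and 3928 CPM in shJUP 1 to 3 and at 2341, 1645 and 2550 CPM in shNC 1 to 3. Each shJUP library lay above the shNC library of its number, by ratios of 1.52, 1.49 and 1.54, but shJUP 2 lay below shNC 3. The mean of its shJUP libraries was 3317 ± 766 CPM and that of its shNC libraries 2179 ± 474 CPM (SD, n = 3 each), a log2 fold change of 0.61 (SE 0.22). That missed the edgeR threshold (adjusted p = 0.451, and 0.0852 once edgeR had the block) and passed DESeq2 with the block (adjusted p = 7.9e-08). HSP90AB1 (ENSG00000096384), the form with the higher basal expression in most cells and a weaker response to heat, was at 2075, 1808 and 2192 CPM in shJUP 1 to 3 and at 1892, 1684 and 1865 CPM in shNC 1 to 3 (log2 0.16, SE 0.11, edgeR adjusted p = 0.654). The ratio of HSP90AA1 to HSP90AB1 within a library was 1.72, 1.36 and 1.79 in shJUP 1 to 3 and 1.24, 0.977 and 1.37 in shNC 1 to 3. This ratio does not depend on the scaling of libraries, and it was looked up after the values were seen. The windows of both genes are shown because both hold matches to the heat shock element, which stand in capitals (2-unit matches, joined where they overlap). Where a gene had several annotated starts, the window with the most matches was taken. The other windows of HSP90AA1 and HSP90AB1 held no match. HSP90AA1 has 3 such matches at chr14:102086995-102087294 (minus strand) and HSP90AB1 has 4 at chr6:44247693-44247992 (plus strand).
HSP90AA1: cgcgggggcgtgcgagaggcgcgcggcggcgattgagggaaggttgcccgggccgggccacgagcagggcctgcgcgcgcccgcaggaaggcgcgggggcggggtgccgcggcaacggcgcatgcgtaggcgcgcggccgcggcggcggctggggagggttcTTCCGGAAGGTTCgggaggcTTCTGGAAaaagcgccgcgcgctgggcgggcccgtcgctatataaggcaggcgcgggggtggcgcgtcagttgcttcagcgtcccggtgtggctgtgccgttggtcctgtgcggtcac
HSP90AB1: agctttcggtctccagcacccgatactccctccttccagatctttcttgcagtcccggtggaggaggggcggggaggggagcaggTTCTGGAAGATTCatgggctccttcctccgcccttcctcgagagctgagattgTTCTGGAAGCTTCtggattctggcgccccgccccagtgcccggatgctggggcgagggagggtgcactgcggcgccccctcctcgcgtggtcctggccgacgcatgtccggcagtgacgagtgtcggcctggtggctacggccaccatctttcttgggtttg

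STIP1, the adaptor that carries clients from HSP70 to HSP90, was at 361, 313 and 402 CPM in shJUP 1 to 3 and at 328, 223 and 312 CPM in shNC 1 to 3 (log2 0.32, SE 0.17, edgeR adjusted p = 0.577). Only shJUP 2 lay within the range of the controls. Among 10 further HSP90 co-chaperones from a list of other proteostasis genes, 9 lay above 0 with a median log2 fold change of 0.18. The edgeR test called 0 of them, and DESeq2 with the block called 3 higher. These were FKBP4 (log2 0.54, SE 0.13), FKBP5 (0.79, SE 0.21) and CHORDC1 (0.55, SE 0.33), the last at 0.32 without shJUP 1 and 0.30 without shNC 2. FKBP4 and FKBP5 are immunophilins that join HSP90 on steroid receptors. FKBP4 was at 90.6, 79.3 and 91.3 CPM in shJUP 1 to 3 and at 51.5, 65.5 and 62.7 CPM in shNC 1 to 3. FKBP5 was at 19.6, 29.7 and 25.6 CPM in shJUP 1 to 3 and at 12.7, 18.1 and 12.6 CPM in shNC 1 to 3. Neither gene overlapped between the groups. The kinase co-chaperone CDC37 was at a log2 fold change of 0.17 (SE 0.12).

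**Figure D2:**
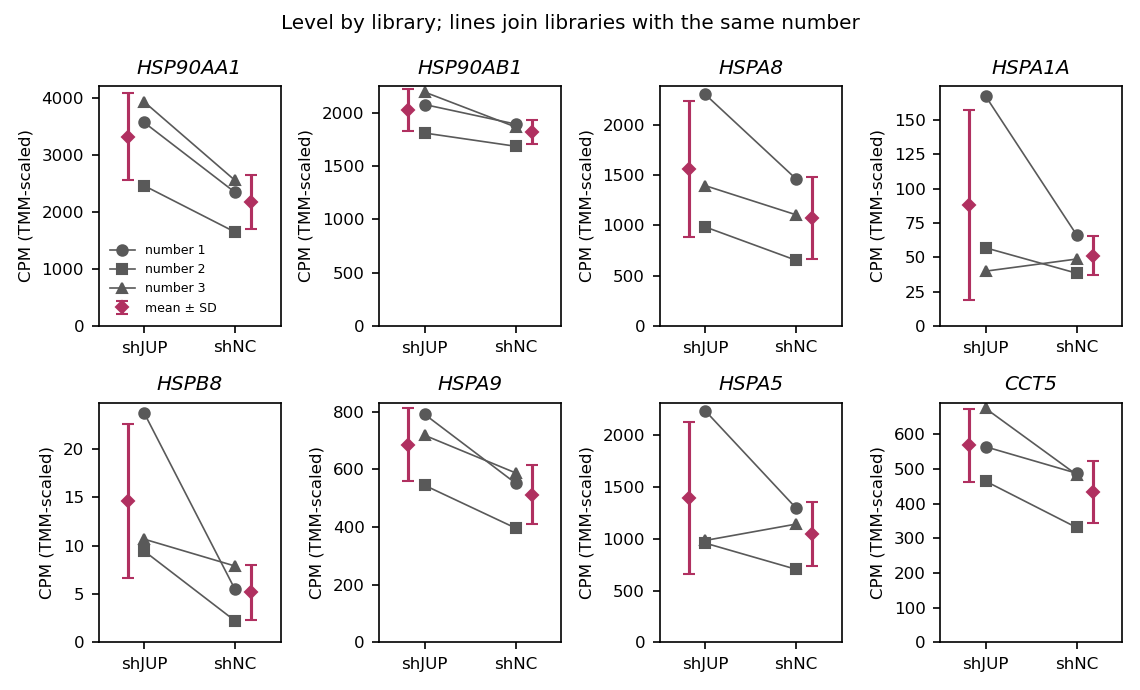
Level in CPM of 8 chaperone genes in each library, shJUP left and shNC right, with lines between libraries of the same number and the mean ± SD (n = 3) beside them; each axis starts at 0. For HSP90AA1 shJUP lies above shNC in each number, at ratios of 1.49 to 1.54, whereas HSPA1A and HSPA5 are high in shJUP 1 alone and lower in shJUP in number 3.

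The main cytosolic HSP70 genes had their highest level in shJUP 1. HSPA8 (ENSG00000109971), the HSP70 that the cytosol holds in quantity without stress, was at 2303, 984.5 and 1395 CPM in shJUP 1 to 3 and at 1462, 653 and 1105 CPM in shNC 1 to 3. In each group the library of number 2 was lowest and that of number 1 highest, and the ratios within numbers were 1.575, 1.508 and 1.262. The log2 fold change of 0.54 (SE 0.37) missed the edgeR threshold (adjusted p = 0.642), while DESeq2 gave an adjusted p of 3.53e-04 with the block and 0.634 otherwise. It was 0.15 without shJUP 1, 0.28 without shNC 2 and 0.83 without shNC 1. HSPA1A (ENSG00000204389), the classical heat-induced HSP70, was at 167, 56.9 and 39.9 CPM in shJUP 1 to 3 and at 66.4, 38.4 and 48.7 CPM in shNC 1 to 3. HSPA1B (ENSG00000204388) was at 100.5, 42.9 and 27.7 CPM in shJUP 1 to 3 and at 48.8, 28.0 and 35.0 CPM in shNC 1 to 3. In both genes shJUP 1 was the highest library and shJUP 3 the lowest of its group, below shNC 1 and 3. Their log2 fold changes of 0.78 (SE 0.51) and 0.61 (SE 0.45) missed the edgeR threshold (adjusted p = 0.630 and 0.662) and became -0.08 and -0.07 without shJUP 1. HSPA1A and HSPA1B are near-identical copies that share reads, so the split between them is uncertain. Summed into 1 gene they gave 0.71 (edgeR adjusted p = 0.639).

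The windows of HSPA8 and HSPA1A are shown to set the gene with high basal expression beside the classical heat-induced one, with 2-unit heat shock elements in capitals. HSPA8, at chr11:123062087-123062386 (minus strand), has 4 such matches in 2 places, and each place holds a match to 3 units. HSPA1A, at chr6:31815293-31815592 (plus strand), has 1 match to 2 units.
HSPA8: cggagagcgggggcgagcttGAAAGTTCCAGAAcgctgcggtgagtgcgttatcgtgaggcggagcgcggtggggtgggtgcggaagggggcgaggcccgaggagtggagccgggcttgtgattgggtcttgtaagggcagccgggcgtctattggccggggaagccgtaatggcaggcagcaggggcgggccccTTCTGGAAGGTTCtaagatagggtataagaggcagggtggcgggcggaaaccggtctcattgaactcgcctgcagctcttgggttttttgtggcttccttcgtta
HSPA1A: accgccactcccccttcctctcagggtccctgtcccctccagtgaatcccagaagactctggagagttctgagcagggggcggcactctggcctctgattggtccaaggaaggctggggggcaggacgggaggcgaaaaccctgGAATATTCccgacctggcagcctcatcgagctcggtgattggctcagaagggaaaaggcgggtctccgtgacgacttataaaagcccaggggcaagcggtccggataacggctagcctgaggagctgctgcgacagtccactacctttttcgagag
HSPA2, a form abundant in testis, was at 6.72 ± 2.00 CPM in shJUP libraries and 6.45 ± 1.94 CPM in shNC libraries (SD, n = 3 each). Its mean level per length was the lowest of the members in both groups, although in shNC 2 HSPB8 was lower (0.780 against 1.49 CPM per kb). HSPA14, a ribosome-associated HSP70, was at 31.9 ± 4.23 CPM in shJUP libraries and 27.9 ± 2.72 CPM in shNC libraries and lies over the gene now named MSANTD7, so its reads are uncertain.

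The HSP110 proteins, nucleotide exchange factors of HSP70, were all above 0, at log2 fold changes of 0.22 to 0.35. HSPA4L was at 30.7, 30.6 and 25.8 CPM in shJUP 1 to 3 and at 21.6, 24.4 and 22.4 CPM in shNC 1 to 3. Its groups did not overlap (log2 0.35, SE 0.13, edgeR adjusted p = 0.450). HSPA4 was at 264, 250 and 295 CPM in shJUP 1 to 3 and at 238, 221.5 and 237 CPM in shNC 1 to 3, also without overlap (log2 0.22, SE 0.11, edgeR adjusted p = 0.540). HSPH1, marked as heat-inducible like HSPA4L, was at 325, 145 and 237 CPM in shJUP 1 to 3 and at 211, 139 and 209 CPM in shNC 1 to 3. Its number-2 libraries were the lowest of their groups, the groups overlapped, and the log2 fold change of 0.34 (SE 0.30) became 0.04 without shJUP 1.

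The other exchange factors and J proteins showed small differences. BAG3, which pairs with small heat shock proteins in autophagy, was at 41.3, 40.6 and 37.1 CPM in shJUP 1 to 3 and at 35.7, 33.6 and 34.3 CPM in shNC 1 to 3. Its groups did not overlap, at a log2 fold change of 0.20 (SE 0.11, edgeR adjusted p = 0.569). DNAJB1, the main heat-induced J protein, was at 123, 98.8 and 89.5 CPM in shJUP 1 to 3 and at 97.7, 110 and 97.5 CPM in shNC 1 to 3. Only shJUP 1 lay above all controls, and the log2 fold change of DNAJB1 was 0.03 (SE 0.14). The J proteins of the cytosol not yet named had log2 fold changes of 0.11 (DNAJA2), 0.13 (DNAJB6), 0.19 (DNAJA1) and 0.34 (DNAJB4). DNAJA2 did not overlap between groups, at 109 ± 1.20 CPM in shJUP libraries and 101 ± 5.83 CPM in shNC libraries (SD, n = 3 each). A list of HSP70 co-chaperones and partners outside the members also held other chaperone-related genes, among them the small heat shock gene CRYAB. Of its 20 tested genes 13 lay above 0, with a median of 0.04, and edgeR and DESeq2 with the block called 0. DESeq2 without both number-2 libraries called BAG2, an inhibitor of the ubiquitin ligase CHIP, higher (log2 0.41, SE 0.13). The next smallest p-values in that list were those of DNAJC21 (0.29, SE 0.11), BAG5 (-0.21, SE 0.11) and CRYAB (0.91, SE 0.56), all above the edgeR threshold. CRYAB was at 0.50 without shNC 2, which held 10 of its counts, and at 0.27 without both number-2 libraries.

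HSPB8, a small heat shock protein that works with BAG3, had the largest fold change among the members. It was at 23.7, 9.44 and 10.7 CPM in shJUP 1 to 3 and at 5.47, 2.23 and 7.89 CPM in shNC 1 to 3, from 425, 177 and 201 counts in shJUP and 99, 42 and 145 counts in shNC. Every shJUP library lay above every shNC library, by ratios of 4.33, 4.23 and 1.35 within numbers 1, 2 and 3. The log2 fold change of 1.49 (SE 0.52) missed the edgeR threshold (adjusted p = 0.444) and that of DESeq2 (0.0940), and passed DESeq2 with the block (0.00242). It was the only member that differed at least 2-fold over all libraries, as 3.16% of all genes did, and its log2 fold change was 0.96 without shJUP 1. HSPB1, the most abundant small heat shock gene here, was at 82.7, 110.5 and 89.6 CPM in shJUP 1 to 3 and at 90.4, 110.1 and 84.3 CPM in shNC 1 to 3. The ranges overlapped and the means were nearly equal (log2 -0.01, SE 0.15), and with library totals alone the value was 0.0207. HSPB11 was at 61.9, 68.3 and 71.6 CPM in shJUP 1 to 3 and at 63.9, 52.3 and 61.9 CPM in shNC 1 to 3 (log2 0.18, SE 0.12). The window of HSPB8 is shown because of that gene's fold change, at chr12:119178681-119178980 (plus strand), with 2 matches to 2 units in capitals, the last of them just after the start.
HSPB8: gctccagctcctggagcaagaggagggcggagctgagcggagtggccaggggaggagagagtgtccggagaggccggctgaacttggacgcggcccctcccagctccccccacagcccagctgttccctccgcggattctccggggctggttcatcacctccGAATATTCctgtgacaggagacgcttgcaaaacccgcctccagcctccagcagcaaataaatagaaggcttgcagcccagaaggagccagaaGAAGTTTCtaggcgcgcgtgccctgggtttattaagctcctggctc

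The heat shock factors had log2 fold changes below their SE. HSF1, the main activator of the heat shock response, was at 44.6, 52.4 and 53.2 CPM in shJUP 1 to 3 and at 41.4, 48.5 and 50.8 CPM in shNC 1 to 3 (log2 0.09, SE 0.13). HSF2 was at 39.7, 43.2 and 43.0 CPM in shJUP 1 to 3 and at 33.8, 45.0 and 39.0 CPM in shNC 1 to 3 (log2 0.10, SE 0.13). The groups overlap in both genes, and the edgeR adjusted p was 0.821 and 0.828. HSF1 is controlled largely after translation, and its activity was not measured. The 17 members marked from general knowledge as heat-inducible to any degree, HSPA8 and HSP90AB1 included, had a median log2 fold change of 0.32 with 16 above 0, and the 25 others 0.18 with 24 above 0. Within numbers 1, 2 and 3 the heat-inducible members had median log2 ratios of 0.36, 0.33 and 0.16. The others had 0.20, 0.18 and 0.18, so that in number 3 the heat-inducible median was the lower. The difference between these sets was not tested.

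**Figure D3:**
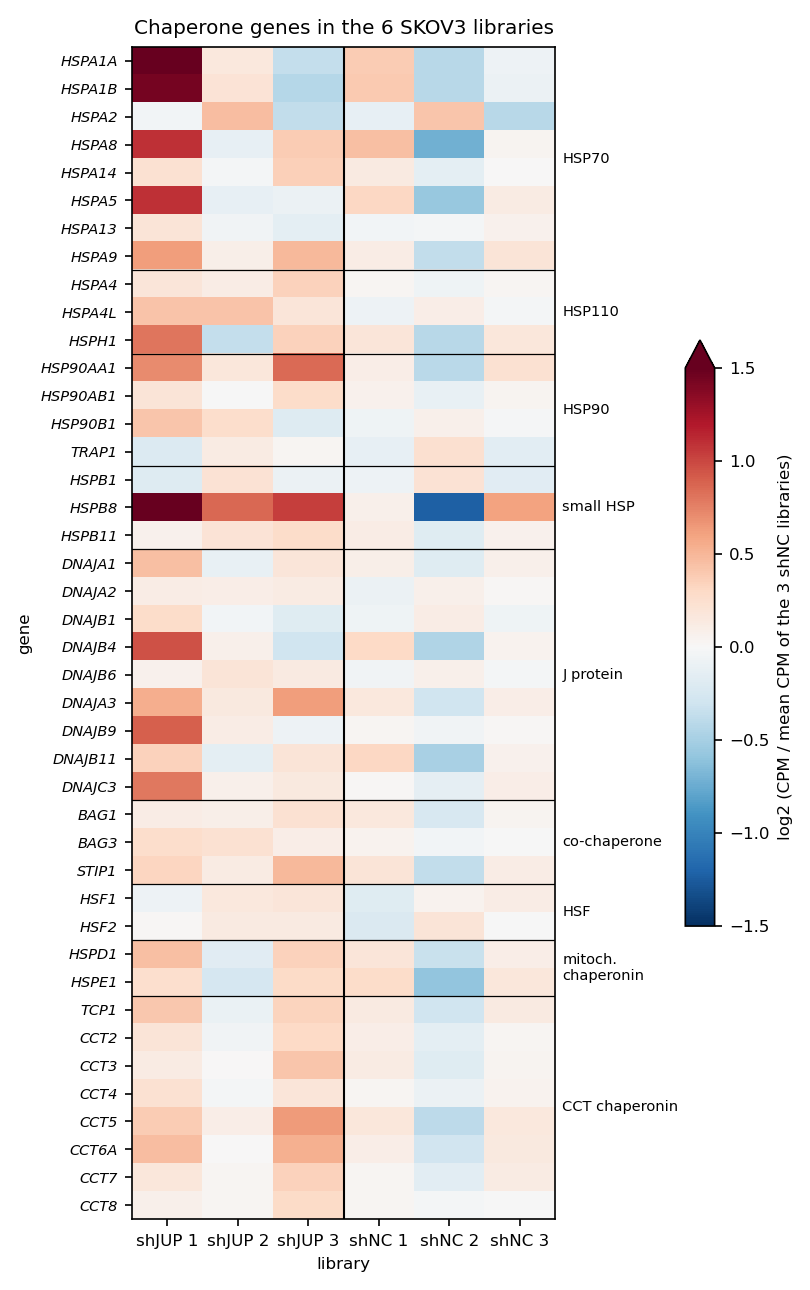
Heat map of the 42 chaperone genes (rows, by class) in the 6 libraries (columns, shJUP left of the line, shNC right), as log2 of CPM over the mean of the 3 shNC libraries; colours are clipped at 1.5. In the column shJUP 1 HSPB8, HSPA1A and HSPA1B are darkest, followed by HSPA8 and HSPA5, and shNC 2 is the bluest column, with 10 of 42 genes above the control mean.

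All 6 ER genes were higher in shJUP 1 than in shNC 1, and 2 of the 6, DNAJB11 and DNAJC3, were higher in shJUP 3 than in shNC 3. HSPA5 (ENSG00000044574), also called BiP, the HSP70 of the ER lumen, was at 2235, 958 and 983 CPM in shJUP 1 to 3 and at 1296, 705 and 1141 CPM in shNC 1 to 3. The highest library was shJUP 1, and the other shJUP libraries lay within the range of the controls. Its log2 fold change of 0.41 (SE 0.37, edgeR adjusted p = 0.722) became -0.11 without shJUP 1. HSP90B1, the HSP90 of the ER, was at 2250, 2026 and 1472 CPM in shJUP 1 to 3 and at 1608, 1783 and 1666 CPM in shNC 1 to 3, with shJUP 3 the lowest of all 6 (log2 0.18, SE 0.16). DNAJB9, a J protein partner of HSPA5, was at 27.7, 16.1 and 14.1 CPM in shJUP 1 to 3 and at 15.3, 14.3 and 15.1 CPM in shNC 1 to 3 (log2 0.37, SE 0.25, and 0.02 without shJUP 1). DNAJC3, another ER J protein, was at 163, 99.1 and 104 CPM in shJUP 1 to 3 and at 95.3, 85.6 and 101 CPM in shNC 1 to 3 (log2 0.38, SE 0.20, and 0.12 without shJUP 1). DNAJB11 (log2 0.15, SE 0.22) and HSPA13 (0.01, SE 0.12) completed the compartment, and HSPA13 turned to -0.0092 with upper-quartile scaling.

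Over the 6 ER genes the median log2 ratio was 0.63 in number 1, 0.20 in number 2 and -0.14 in number 3, with 6, 5 and 2 genes above 0. The 31 genes of the cytosol and nucleus had 0.20, 0.19 and 0.20 in the same numbers, and the 5 mitochondrial genes 0.26, 0.34 and 0.25. The median log2 fold change of the ER genes was 0.28 over all libraries and 0.03 without shJUP 1. That of the cytosolic genes was 0.19 and 0.17 in the same settings, and that of the mitochondrial genes 0.23 and 0.12. A fall from number 1 to number 3 was not particular to the ER. The HSP70 class, which spans the 3 compartments, had medians of 0.59, 0.45 and -0.09. Of the cytosolic genes, HSPA1A had ratios of 2.52, 1.48 and 0.82, HSPA1B 2.06, 1.53 and 0.79, and DNAJB4 1.58, 1.44 and 0.78. Other cytosolic genes did not fall so, such as HSP90AA1 at 1.52, 1.49 and 1.54. The difference between compartments was not tested.

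**Figure D4:**
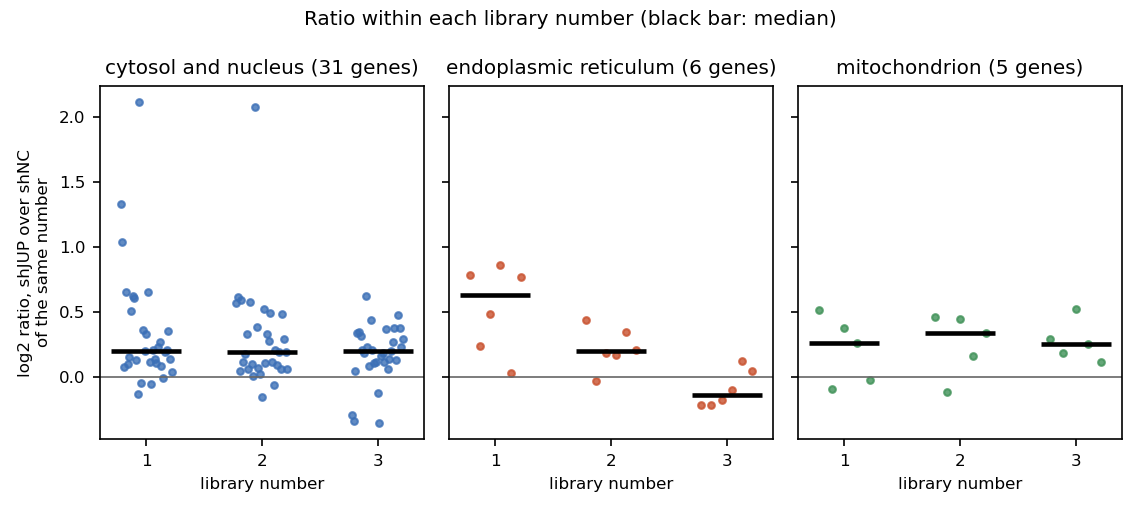
Log2 ratio of shJUP over the shNC library of the same number, 1 point a gene, in 3 panels by compartment, with the median as a black bar. The ER genes have medians of 0.63, 0.20 and -0.14 in numbers 1, 2 and 3, while the cytosolic medians stay between 0.19 and 0.20.

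The windows of HSPA5 and HSP90B1, the ER counterparts of HSPA8 and HSP90AA1, are shown with the ER stress element in capitals. HSPA5 has 1 match at chr9:125241294-125241593 (minus strand) and HSP90B1 has 2 at chr12:103930160-103930459 (plus strand).
HSPA5: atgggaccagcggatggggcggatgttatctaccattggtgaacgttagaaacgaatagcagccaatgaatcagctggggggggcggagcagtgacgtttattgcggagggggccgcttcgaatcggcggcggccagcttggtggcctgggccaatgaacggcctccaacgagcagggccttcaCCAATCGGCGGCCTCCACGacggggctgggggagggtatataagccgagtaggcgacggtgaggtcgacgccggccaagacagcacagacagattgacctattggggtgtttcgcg
HSP90B1: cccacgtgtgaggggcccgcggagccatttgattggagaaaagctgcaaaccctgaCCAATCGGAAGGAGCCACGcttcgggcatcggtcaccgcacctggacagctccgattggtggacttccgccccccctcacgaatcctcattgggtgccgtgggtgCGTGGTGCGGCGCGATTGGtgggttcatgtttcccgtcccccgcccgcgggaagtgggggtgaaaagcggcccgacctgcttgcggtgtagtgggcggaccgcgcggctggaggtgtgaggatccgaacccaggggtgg
Of 22 other genes of ER folding and the unfolded protein response 14 lay above 0, with a median of 0.08. The edgeR test called 0 of them, and DESeq2 called SERP1 higher without the block and called SERP1 higher and ATF4 lower with it. SERP1, a small protein of the ER translocon, was at 206.5, 172 and 174 CPM in shJUP 1 to 3 and at 76.5, 116 and 84.3 CPM in shNC 1 to 3 (log2 1.00, SE 0.17, edgeR adjusted p = 0.331, DESeq2 adjusted p = 1.91e-04). All shJUP libraries lay above all controls, and without both number-2 libraries SERP1 passed edgeR as well (adjusted p = 0.0415). ATF4, a transcription factor of the integrated stress response, was at 325, 256 and 263.5 CPM in shJUP 1 to 3 and at 357, 422 and 383 CPM in shNC 1 to 3, all shJUP libraries below all controls (log2 -0.46, SE 0.13, DESeq2 adjusted p = 0.0320 with the block). DDIT3, a pro-apoptotic factor of the same response, had a log2 fold change of 0.54 (SE 0.25) and CANX, a lectin chaperone, 0.27 (SE 0.14), both with an edgeR adjusted p above the threshold. DDIT3 was at 0.23 without shJUP 1, and CANX at 0.18 without shNC 2.

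In the mitochondrion, HSPA9, also called mortalin, the HSP70 of the matrix and its import motor, was at 791, 545 and 718 CPM in shJUP 1 to 3 and at 552, 397 and 588 CPM in shNC 1 to 3. Each shJUP library lay above its control, by 1.43, 1.37 and 1.22, although shJUP 2 lay below shNC 1 and 3. The log2 fold change was 0.42 (SE 0.19), with an edgeR adjusted p of 0.536 and a DESeq2 adjusted p of 0.00413 with the block, and it was 0.26 without shNC 2. DNAJA3, its J protein partner, was at 58.6, 44.5 and 62.1 CPM in shJUP 1 to 3 and at 45.0, 32.7 and 43.2 CPM in shNC 1 to 3, with ratios of 1.302, 1.36 and 1.438 (log2 0.45, SE 0.18, edgeR adjusted p = 0.465, and 0.0321 in DESeq2 with the block). Both genes were thus higher in shJUP within each of the 3 numbers.

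The mitochondrial chaperonin genes passed no test. HSPD1, the barrel, was at 849.5, 554.5 and 795.5 CPM in shJUP 1 to 3 and at 709, 496 and 667 CPM in shNC 1 to 3 (log2 0.23, SE 0.20). HSPE1, its lid, was at 169, 119 and 173 CPM in shJUP 1 to 3 and at 172, 94.6 and 160 CPM in shNC 1 to 3 (log2 0.11, SE 0.25, and -0.11 without shNC 2). The groups overlap in both genes, and number 2 was lowest in each group. HSPD1 and HSPE1 lie head to head on chromosome 2, with RefSeq starts 105 and 539 bases apart, and the ratio of their levels ran from 4.598 to 5.025 in shJUP and from 4.12 to 5.24 in shNC. TRAP1, the mitochondrial HSP90, was at 50.5, 63.6 and 59.6 CPM in shJUP 1 to 3 and at 53.8, 69.0 and 52.5 CPM in shNC 1 to 3. Its ranges overlapped and its means were nearly equal (log2 -0.01, SE 0.15), and with library totals alone the value was 0.0185. Of 12 other mitochondrial proteostasis genes 9 lay above 0, with a median of 0.09, and no test called any of them. The smallest p-values were those of GRPEL1, the exchange factor of HSPA9 (0.21, SE 0.15), and the protease subunit CLPX (0.13, SE 0.10), followed by CLPB (0.14, SE 0.14) and DNAJC19 (-0.13, SE 0.13).

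The 8 subunits of CCT, the cytosolic chaperonin that folds actin and tubulin, had log2 fold changes of 0.13 to 0.39 and a median of 0.19, which was 0.10 without shJUP 3 and 0.11 without shNC 2. CCT5 was at 564, 464.5 and 674 CPM in shJUP 1 to 3 and at 487.5, 331 and 483.5 CPM in shNC 1 to 3 (log2 0.39, SE 0.20). CCT6A was at 226, 165 and 238 CPM in shJUP 1 to 3 and at 177, 134.5 and 183 CPM in shNC 1 to 3 (log2 0.35, SE 0.18). In both genes shJUP 1 and 3 lay above all controls and shJUP 2 below shNC 1 and 3. Neither passed edgeR (adjusted p = 0.559 and 0.561), and DESeq2 called both with the block (adjusted p = 0.0177 and 0.0324). CCT5 was at 0.24 without shJUP 3 and 0.22 without shNC 2, and CCT6A at 0.22 without shNC 2. CCT7 was at 361, 329 and 411 CPM in shJUP 1 to 3 and at 328, 287 and 350 CPM in shNC 1 to 3 (log2 0.19, SE 0.13). The other subunits stood at 0.13 (CCT4), 0.14 (CCT8), 0.15 (CCT2), 0.19 (CCT3) and 0.23 (TCP1). The 8 subunits together took 0.2997%, 0.252% and 0.330% of the TMM-scaled library size in shJUP 1 to 3. In shNC 1 to 3 they took 0.269%, 0.220% and 0.267%. Among 10 other genes of prefoldin and of chaperonin partners, 8 lay above 0 with a median of 0.15, and 4 had an unadjusted edgeR p under 0.05, all higher. These were TXNDC9 (log2 0.42, SE 0.13), PFDN4 (0.42, SE 0.15), VBP1 (0.42, SE 0.16) and PFDN2 (0.28, SE 0.12). The edgeR test called 0 of them over all genes, and DESeq2 with the block called TXNDC9 and VBP1 (adjusted p = 0.0457 and 0.0256).

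Levels of different members can be compared only per length, here as CPM per kb of the exons that GENCODE release 29 gives a gene. These lengths merge the exons of all annotated transcripts, and which transcripts were expressed was not determined, so the order depends on them. HSP90AA1 has 5248 bases and HSP90AB1 2980. Before division by length HSP90AA1 was the higher, at 3317 against 2025 CPM in shJUP and 2179 against 1814 CPM in shNC. HSP90AB1 led at 680 CPM per kb in shJUP and 609 in shNC, followed by HSP90AA1 at 632 and 415, HSP90B1 at 408 and 359, HSPA5 at 356 and 268, and HSPA8 at 322 and 221, in each case shJUP before shNC. The CCT subunits lay between 53.7 and 119 CPM per kb in shJUP and between 42.2 and 109 in shNC. HSPA1A was at 35.4 in shJUP and 20.6 in shNC, HSPB8 at 5.11 and 1.82, and HSPA2 at 1.16 and 1.12. Part of this order did not exceed the spread. In shJUP HSP90AB1 and HSP90AA1 differed by less than the SD of HSP90AA1 (146 CPM per kb), and in shJUP 3 HSP90AA1 was the higher, at 748.5 against 736. HSP90B1, HSPA5 and HSPA8 in shJUP also lay within the SD of HSPA5 (187 CPM per kb), and in shJUP 3 HSPA8 was above HSPA5, at 288 against 252.

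**Figure D5:**
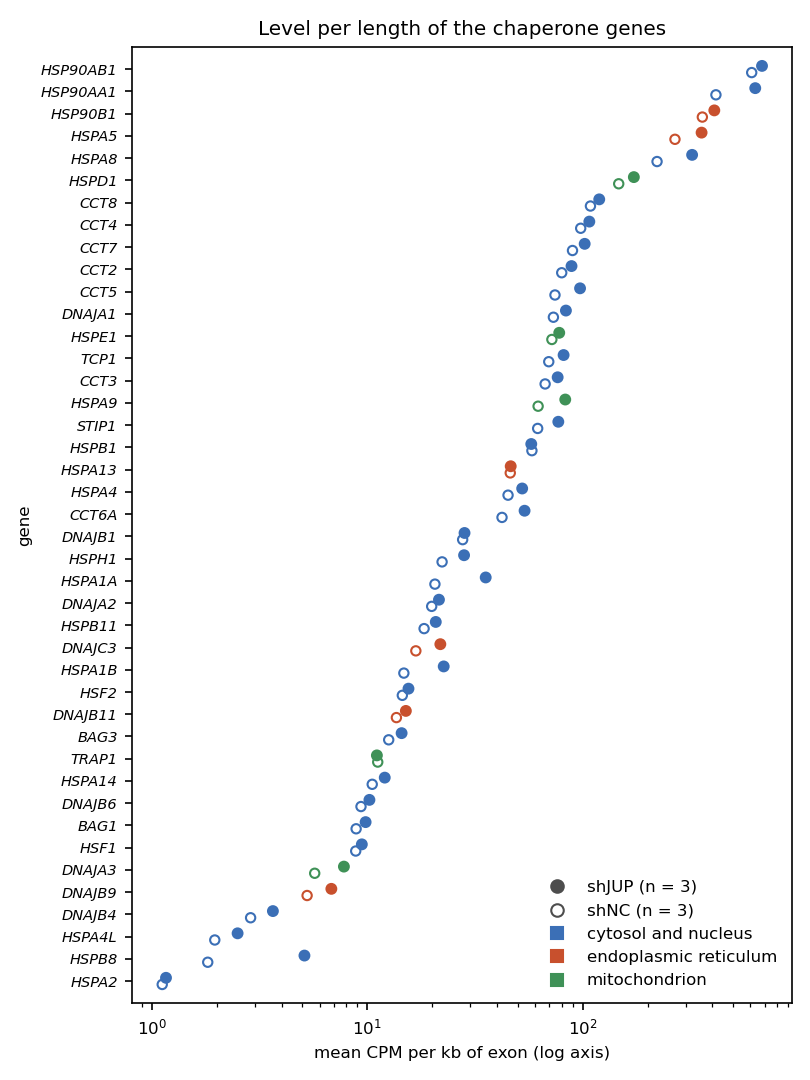
Mean level per length of the 42 chaperone genes in CPM per kb of exon on a log axis, shJUP as filled and shNC as open circles (n = 3 each), coloured by compartment. The genes span from 1.12 (HSPA2) to 609 (HSP90AB1) CPM per kb in shNC, and the filled circle lies right of the open one for most.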

How the data were processed

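RNA of 6 SKOV3 cultures was sequenced, 3 shJUP and 3 shNC; per the labels' protocols, libraries were made from poly(A) RNA captured on oligo(dT) beads. The authors deposited unscaled expected counts for each Ensembl gene. The submitters' processing notes name STAR 2.7.9a, RSEM 1.3.3, edgeR 3.32.1 and DESeq2 1.26.0 without their roles. Neither the build and annotation nor the handling of strand is stated in the labels.

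Of 60695 rows, 31 named no gene and were left out. Counts were rounded and fitted with edgeR 4.0.16 in R 4.3.3 (filterByExpr, which kept 15867 genes, TMM, two-sided quasi-likelihood test, Benjamini-Hochberg over all genes, threshold 0.05). CPM use TMM-scaled library sizes. SE is the absolute log2 fold change over the root of F. Alternatives were other scalings and filters, limma-voom (limma 3.58.1), DESeq2 1.42.0 on all genes with a count, the library number as a block, and libraries left out. The steps were tested on simulated counts that held no effect of library number, so that test cannot show how the block deals with one. No p is given for a list.

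Same-numbered libraries were treated as pairs in the ratios within numbers and in the settings with a block, but not in the main edgeR test. Their deviations from the group means correlated at 0.14 for number 1, 0.51 for number 2 and 0.20 for number 3. Pairing was clear only for number 2, since shJUP 3 correlated more with shNC 1 (0.39), and shJUP 1 slightly more with shNC 3 (0.15). No 2 libraries of a group agreed within sampling noise (chi-square per gene 10.2 to 62.2). Members, lists and the setting without number-2 libraries were chosen with earlier results of these data known. Values by library were given for 18 chosen members, the 10 next by p-value, and up to 4 genes of each other list. CPM per kb uses the merged exons of GENCODE release 29, which may not be the annotation counted. Promoter windows came from RefSeq.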

Additional observations from a re-analysis of the deposited data

How the results depend on the processing

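The count of called members was 0 under every setting but DESeq2 with the replicate block (7) and DESeq2 without both number-2 libraries (3). Over all genes, where the edgeR test called 0, the count became 5 when no filter was used, 1 with the replicate block, 49 without both number-2 libraries, 179 with DESeq2, 643 with DESeq2 without both number-2 libraries and 696 with DESeq2 and the replicate block; the cause was not tested. The median log2 fold change of all members stayed above 0 in all settings (0.14 to 0.27 with 1 library left out). With 1 library left out the HSP70 median ran from 0.0183 (without shJUP 1) to 0.59 and the HSP90 median from 0.11 (without shJUP 1) to 0.22. The other class medians ran from 0.18 to 0.34 (HSP110), 0.11 to 0.24 (small heat shock proteins), 0.05 to 0.33 (J proteins), 0.16 to 0.23 (co-chaperones), 0.005 to 0.16 (heat shock factors), -0.0092 (without shNC 2) to 0.33 (mitochondrial chaperonin) and 0.10 to 0.27 (CCT). Of the 42 members 30 stayed above 0 in every setting and 12 changed sign in at least 1. With 1 library left out these ran as log2 fold changes from -0.0771 to 1.13 (HSPA1A), -0.074 to 0.94 (HSPA1B), -0.20 to 0.32 (HSPA2), -0.11 to 0.62 (HSPA5), -0.0956 to 0.076 (HSPA13), -0.0859 to 0.12 (TRAP1), -0.14 to 0.11 (HSPB1), -0.11 to 0.12 (DNAJB1), -0.10 to 0.58 (DNAJB4), -0.0483 to 0.33 (DNAJB11), -0.0022 to 0.21 (HSF2) and -0.11 to 0.27 (HSPE1). Other settings that turned a sign gave -0.0092 for HSPA13 with upper-quartile scaling, 0.0207 for HSPB1 and 0.0185 for TRAP1 with library totals alone, and 0.0603 and 0.0583 for TRAP1 without both number-2 libraries in edgeR and DESeq2. None of these 12 passed a test in any setting. With 3 libraries a group, p-values measure only the spread between these cultures.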

Other observations

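HSPA6, a heat shock gene nearly silent in unstressed cells, stood in the list of HSP70 co-chaperones and partners. It failed the filter on low counts and had no test in the main edgeR fit. DESeq2 on all genes with a count gave it a log2 fold change of 2.33 and no adjusted p. The shJUP libraries held 9, 6 and 10 of its counts, and the shNC libraries 1, 2 and 2, so each shJUP library held more than each shNC library. HSPA6 was looked up because it was the 1 gene of the 75 in those lists without a test in the main fit.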
